A study of Homo sapiens with 6 samples.

Results

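The S100 proteins and the annexins are families of small calcium sensors and of calcium-regulated membrane binders. Their genes were taken from the table by symbol alone, that is every S100A, S100B, S100G, S100P and S100Z symbol and every ANXA symbol followed by a number. S100PBP, whose product binds S100P and is no S100 protein, was left out. This gave 33 of the 26255 gene symbols in the table, 21 S100 genes and 12 annexin genes.

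The RNA came from MDA-MB-231, a human line of triple-negative breast cancer. The cells carried a lentiviral hairpin, either the control shNT or one against GPR81, the lactate receptor, and were selected with puromycin. Each group had 3 libraries, and the labels do not say whether these were separate cultures, so p-values measure the spread between libraries, which may be technical. Neither the labels nor the methods say which of the hairpins against GPR81 the sequenced cells carried. Values are FPKM (fragments per kilobase of transcript, scaled to sequencing depth), which are per length and can be compared between genes. Fold changes are on the scale of log2(FPKM + 0.1) and come from limma with Benjamini-Hochberg adjustment over 14349 genes. Calls required both an adjusted p below 0.05 and a change of more than 1.5-fold.

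HCAR1, the gene of GPR81, was at 0.968, 1.02 and 1.36 FPKM in shNT and at 0.978, 0.891 and 0.396 FPKM in the libraries labelled shGPR81. The groups overlapped, and the log2 difference was -0.57 with an SE of 0.31 (limma, adjusted p = 0.38). The first value of the second group lay within the shNT range, so the group is named below by its label. HCAR1 had 37, 40 and 52 reads in shNT and 40, 36 and 16 in the libraries labelled shGPR81. The ratio after correction for depth was 0.677 with a 95% Clopper-Pearson interval of 0.513 to 0.892, which covers counting error only. Without shGPR81 replicate 3 the log2 difference of HCAR1 was -0.22. The paper reports reduced GPR81 by RT-qPCR and western blotting in its GPR81 hairpin lines. Relative depth of the 6 libraries, read from the steps in low values, was between 1 and 1.071. All 7 markers fixed for this line, VIM, CD44, KRT18, KRT8, AXL, LDHB and CAV1, were detected. Their sum was 4793 to 5692 FPKM in shNT and 5552 to 6156 FPKM in the libraries labelled shGPR81, mostly VIM. By sign, 4 of these markers were lower and 3 higher, and 0 were called. CD44 was lower without overlap, and VIM and LDHB were higher without overlap. Of 7 luminal markers, ESR1, PGR and CDH1 were listed at 0 throughout. The other 4 were detected, KRT19 at 65.4 to 123 FPKM, EPCAM at 5.199 to 6.856, FOXA1 at 1.17 to 1.92 and GATA3 at 1.11 to 1.39 FPKM over the 6 libraries.

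S100 proteins are small proteins with a pair of EF-hand motifs, loops that hold calcium. Most work as dimers that open on binding calcium and then grip a partner, such as a cytoskeletal protein, an annexin or p53, and some are released and bind the receptor RAGE. Annexins carry repeated domains that bind acidic phospholipids in the presence of calcium, and they take part in membrane traffic, membrane repair and, through ANXA1, the damping of inflammation. S100A10 binds ANXA2 and S100A11 binds ANXA1, and the pairs bridge membranes. S100A4 and S100P are known for their link to invasion and metastasis in breast and other cancers.

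The sequences shown are the 250 bases before the RefSeq start site (GRCh38.p14) of S100P, the 1 gene past both thresholds, of S100A6, the most abundant gene of both families, and of S100A4, which lies close to S100A6. They run 5′ to 3′ on the strand of the gene, at chr4:6693628-6693877 on the plus strand for S100P, chr1:153535992-153536241 on the minus strand for S100A6 and chr1:153545807-153546056 on the minus strand for S100A4. Capitals mark matches to any of 6 short motifs, searched on both strands. The TATA box was searched as TATAAA. The GC box, where SP1-type factors bind, was searched as GGGCGG. The core of the cAMP response element was searched as TGACG, and a match on the other strand is printed as its reverse complement. The CCAAT box, the AP-1 site (written TGANTCA) and the E-box (written CACGTG) had no match in these windows.
S100P: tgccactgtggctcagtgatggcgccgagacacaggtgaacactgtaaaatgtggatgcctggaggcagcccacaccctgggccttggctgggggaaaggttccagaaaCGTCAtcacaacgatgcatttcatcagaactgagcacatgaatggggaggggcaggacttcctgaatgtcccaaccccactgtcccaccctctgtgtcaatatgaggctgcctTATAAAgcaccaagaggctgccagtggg
S100A6: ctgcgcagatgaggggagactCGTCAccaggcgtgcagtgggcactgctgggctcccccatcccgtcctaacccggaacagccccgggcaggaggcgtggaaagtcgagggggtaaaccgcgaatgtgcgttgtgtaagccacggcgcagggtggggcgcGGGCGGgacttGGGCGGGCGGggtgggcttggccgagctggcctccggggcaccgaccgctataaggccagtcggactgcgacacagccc
S100A4: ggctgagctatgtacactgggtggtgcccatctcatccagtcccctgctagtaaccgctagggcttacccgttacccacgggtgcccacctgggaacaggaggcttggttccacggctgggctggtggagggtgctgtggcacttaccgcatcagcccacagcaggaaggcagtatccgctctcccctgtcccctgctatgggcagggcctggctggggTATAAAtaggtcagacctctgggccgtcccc

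S100P held a TATA box from -28 to -23, counted from the start site, and a cAMP response core on the opposite strand from -141 to -137. S100A4 held a TATA box from -31 to -26. S100A6 held no TATAAA, though the variant tataag, which was not searched, stands near the end of its window. It also held a cAMP response core on the opposite strand from -229 to -225. Its 3 GC boxes lay between -90 and -70, and the last 2 overlap. Such windows were found for 29 of the 33 genes, 40 windows in all. The TATA box stood in 37.5% of these windows and in 10.7% of all 35116 promoter windows of the RefSeq table, and the GC box in 35.0% and 42.6%. By gene, the GC box was found in 11 of the 13 genes with a mean above 20 FPKM and in 2 of the other 16, and the TATA box in 4 of the 13 and in 10 of the 16. A gene with several windows had more chances of a match. The same split by level was not made over all genes, so it cannot be read as particular to these families. The cAMP response core stood in 4 of the 40 windows and in 21.2% of all windows. The CCAAT box stood in 25.0% and 32.0%, the AP-1 site in 12.5% and 6.57%, and the E-box in 5.0% and 6.34%. These are exact matches of letters, not sites shown to be bound, and variants of a motif were not counted.

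The cells held a few very abundant members and many that were listed at 0 or had few reads. Of the 33 genes, 8 were listed at 0 in all 6 libraries, ANXA8 and S100A14 had values above 0 but did not reach 0.1 FPKM in 3 libraries, and 23 were tested. S100A6, a regulator of the cytoskeleton that binds CACYBP, was the most abundant, with a mean of 1774 FPKM over the 6 libraries and rank 55 among all genes, and ANXA2 followed with 1403 FPKM and rank 71. In shNT the next places were held by ANXA5 (561 FPKM), S100A11 (505), ANXA1 (419), S100A10 (341), S100A16 (178), ANXA6 (160) and S100A13 (134). The values of neighbours in this order did not overlap, except those of S100A16 and ANXA6. The 5 most abundant S100 genes made up 98.4% to 99.1% of the summed S100 FPKM in each library. Below S100A13 the S100 levels dropped by a wide step, to 14.0 FPKM for S100A3, 8.87 for S100A4, 8.48 for S100P and 7.47 for S100A2 in shNT, while ANXA11, ANXA7, ANXA3 and ANXA4 lay between 96.0 and 24.0 FPKM.

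**Figure D1:**
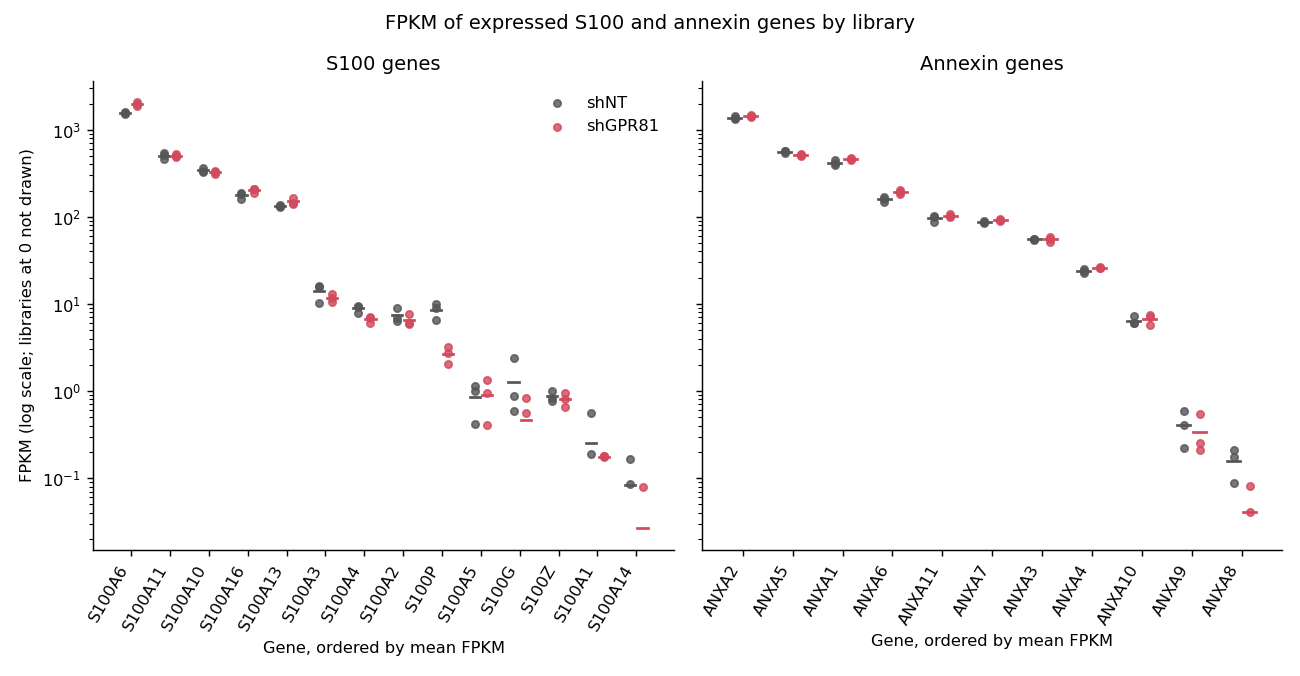
FPKM on a log axis of each S100 gene (left) and annexin gene (right) with any value above 0, ordered by mean; points are libraries (grey, shNT; red, shGPR81) and short lines are group means. S100A6 and ANXA2 head the families, and S100P is the gene whose red points, 2.02 to 3.18 FPKM, lie clearly below its grey ones, 6.48 to 10.1 FPKM.

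S100P fell in the libraries labelled shGPR81. Its locus (GRCh37, chromosome 4, start 6695605, end 6698897, plus strand) is apart from the S100 cluster, and its protein binds ezrin inside the cell and RAGE outside it. It was at 6.48, 10.1 and 8.87 FPKM in shNT and at 2.02, 3.18 and 2.72 FPKM in the libraries labelled shGPR81. Every value of the second group was below every shNT value. The means were 8.48 ± 1.83 and 2.64 ± 0.585 FPKM (SD, n = 3), a log2 difference of -1.65 with an SE of 0.21 (limma, adjusted p = 0.0052), which is 3.13-fold lower with a 95% interval of 2.24 to 4.37. The two-sided p of an exact permutation test was 0.1, the smallest that 3 against 3 libraries allow. S100P was the 1 member called among the 23 tested, where 2.54% of all tested genes were called, 1.59% lower and 0.955% higher. Its fold change was number 78 from the lowest among the 14349 tested genes. In number of reads the values were small, 27, 43 and 37 in shNT against 9, 14 and 12, and the ratio after correction for depth was 0.311 with a 95% Clopper-Pearson interval of 0.206 to 0.459, which covers counting error only.

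The fall of S100P kept both thresholds in all 6 fits that left out 1 library, with log2 fold changes of -1.83 to -1.47 and an adjusted p of at most 0.0289. The stricter treat test of limma, where the null is a change of up to 1.5-fold, gave an adjusted p of 0.118. None of the 14 other tested genes within 1 Mb was called, and their median log2 fold change was -0.06. Their values ran from -1.13 to 0.361, and 8 of the 14 were lower in sign. RNA of bulk cultures cannot tell fewer S100P-expressing cells from less S100P RNA per cell. Summed luminal markers were higher in the same libraries, with 74.1 to 98.7 FPKM in shNT and 113 to 132 FPKM in the libraries labelled shGPR81, mostly KRT19, and its part in the result was not tested. EZR, which encodes ezrin, was at 121 ± 8.80 and 123 ± 7.70 FPKM, AGER, which encodes RAGE, at 1.45 ± 0.250 and 1.45 ± 0.0130 FPKM, and S100PBP at 13.5 ± 1.39 and 14.0 ± 0.746 FPKM (SD, n = 3). The groups overlapped for each of these genes.

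**Figure D2:**
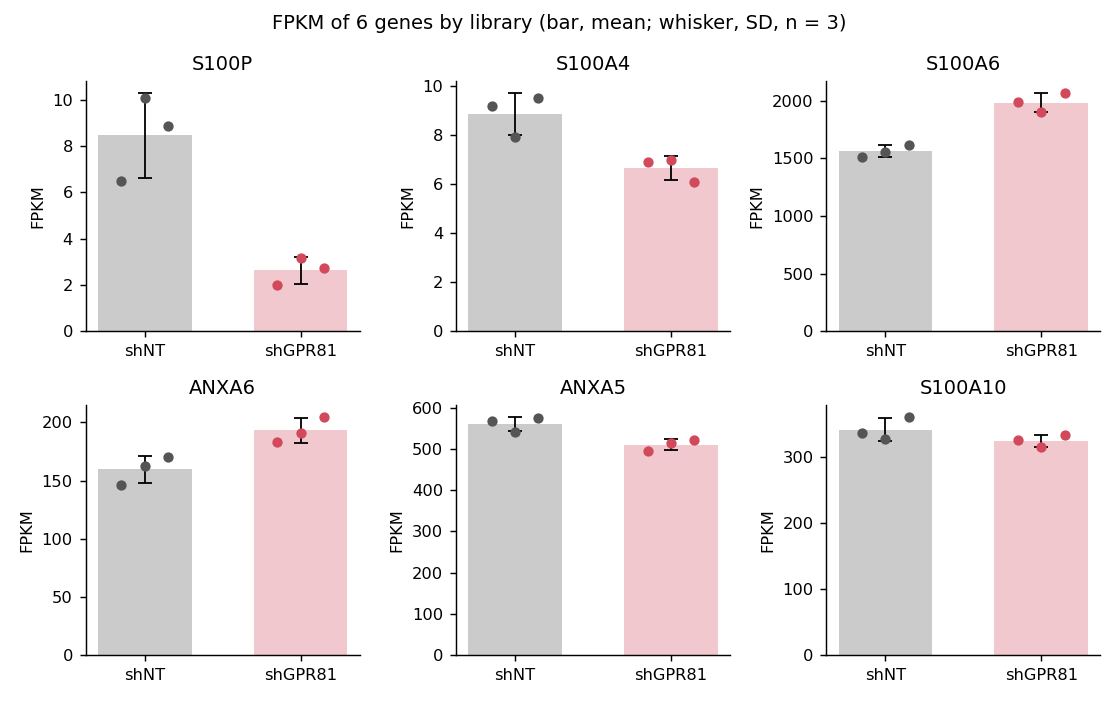
FPKM of S100P, S100A4, S100A6, ANXA6, ANXA5 and S100A10 in the 3 shNT and 3 shGPR81 libraries; bars are means from 0, whiskers the SD (n = 3) and points single libraries. The groups are apart in the first 5 panels and overlap for S100A10, with the widest relative gap for S100P.

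S100A6 was higher in the libraries labelled shGPR81, by less than the fold threshold. It was at 1515, 1558 and 1619 FPKM in shNT and at 1988, 1898 and 2066 FPKM in the other group, without overlap. The log2 difference was 0.34 with an SE of 0.06 (limma, adjusted p = 0.0225), a fold of 1.27 with a 95% interval of 1.146 to 1.403, so that a 1.5-fold change lies outside the interval. At any fold, 5.13% of the tested genes had an adjusted p under 0.05 and 2.06% were higher with such a p, and among the members these were S100A6, which was higher, and S100P. The adjusted p of S100A6 stayed under 0.05 in 2 of the 6 fits without 1 library. It was 0.109 without shNT replicate 2, and 0.115, 0.0743 and 0.0958 without replicates 1, 2 and 3 of the shGPR81 group, with log2 fold changes of 0.31 to 0.37. Summed S100 FPKM was 2642 to 2892 in shNT and 3074 to 3305 in the libraries labelled shGPR81, and 1127 to 1273 and 1176 to 1240 without S100A6, so that the groups were apart with this gene and overlapped without it. The share of S100A6 in the sum was 56.0% to 57.3% and 61.7% to 62.5%. CACYBP was at 93.0 ± 2.40 and 98.6 ± 1.21 FPKM (SD, n = 3; adjusted p = 0.353 from limma), and the ratio of S100A6 to CACYBP was 15.95, 17.25 and 17.29 in shNT and 20.4, 19.01 and 20.96 in the other group. Over the 6 libraries CACYBP ran only from 90.3 to 99.8 FPKM, relatively less than the gap between the S100A6 groups. The ratio to CACYBP thus had to be apart and adds no support.

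S100A4, the metastasis-associated S100 protein that binds non-muscle myosin, was lower in each library labelled shGPR81 than in every shNT library without passing the test. Its values were 9.18, 7.91 and 9.53 FPKM in shNT and 6.90, 6.99 and 6.09 FPKM in the other group. The log2 difference was -0.41 with an SE of 0.098 (limma, adjusted p = 0.0626) and its 95% interval reached from 1.13-fold to 1.55-fold lower. Over 14 alternative settings the adjusted p lay between 0.0549 and 0.183. The loci of S100A4 and S100A3 overlap on the minus strand of chromosome 1, but none of their 75-base stretches is shared. S100A3 was at 10.3, 15.9 and 15.8 FPKM in shNT and at 11.6, 13.1 and 10.5 FPKM in the libraries labelled shGPR81 (adjusted p = 0.55 from limma). Summed, the pair was at 22.9 ± 3.07 and 18.4 ± 1.75 FPKM (SD, n = 3), with a log2 fold change of -0.31 (adjusted p = 0.19). This sum was chosen after the data were seen. MYH9, the myosin heavy chain that S100A4 binds, was at 204 ± 24.2 and 194 ± 13.7 FPKM.

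Along chromosome 1, 17 of the 21 S100 genes lie within 1649.1 kb, in the order S100A10, S100A11, then after a gap the group from S100A9 to S100A1, with genes of the cornified envelope of skin between. The 6 genes from S100A9 to S100A7 were all listed at 0 and S100A6, the next gene along the chromosome, headed the family. Neighbours differed in sign. The log2 fold change was 0.34 for S100A6, -0.41 for S100A4, -0.23 for S100A3, -0.19 for S100A2 (adjusted p = 0.581 from limma), 0.17 for S100A16 and 0.16 for S100A13. S100A16 was at 162, 185 and 188 FPKM in shNT and at 207, 188.1 and 208 FPKM in the other group, and S100A13, which is exported with FGF1, at 130, 133 and 138 FPKM and at 164, 146 and 140 FPKM. Both had groups without overlap, by a narrow margin, and neither passed the test (adjusted p = 0.245 and 0.240 from limma). S100A13 shares its locus with S100A1 on the opposite strand, and S100A1 stood at 0 to 3 reads a library. A further 16.3% of the 75-base stretches of S100A13 are shared with an overlapping annotated transcript. Of 2 other tested genes between S100A10 and S100A1, none was called.

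**Figure D3:**
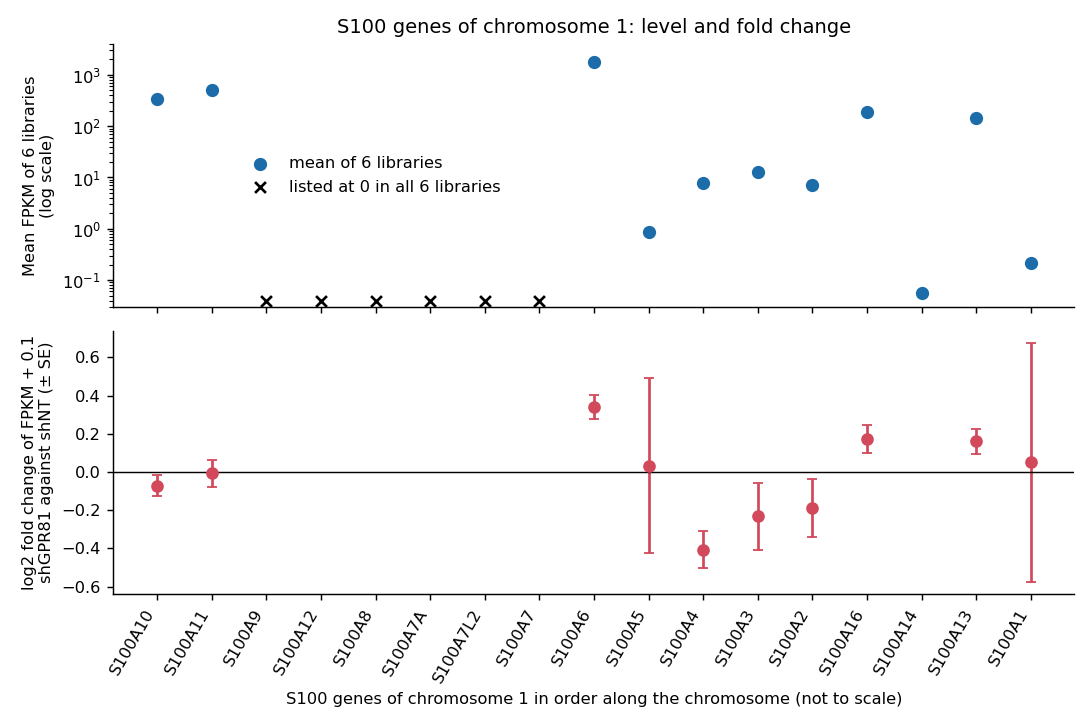
The 17 S100 genes of chromosome 1 in their order along the chromosome (spacing not to scale), with the mean FPKM of the 6 libraries on a log axis (top; crosses, listed at 0) and the log2 fold change of shGPR81 against shNT with its SE (bottom, tested genes). The 6 genes listed at 0 are contiguous, and S100A6 at 0.34 and S100A4 at -0.41 lie on either side of S100A5.

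The calgranulins S100A8, S100A9 and S100A12, inflammatory proteins of neutrophils and monocytes, were listed at 0 in every library. The same held for the psoriasin genes S100A7 and S100A7A, the glial marker S100B and ANXA13. S100A7L2, annotated as an unprocessed pseudogene and counted here by its symbol, was also at 0. None of 10 housekeeping genes was listed at 0. Of the myeloid markers ITGAM, MPO, FCGR3A, FCGR3B and CSF3R were at 0 in all libraries, and the summed list was at 79.9 to 104 FPKM in shNT and 113 to 132 FPKM in the libraries labelled shGPR81, mostly CD68. CD14 of the same list went the other way without overlap, at 2.24, 4.29 and 3.62 FPKM and at 1.74, 1.14 and 1.58 FPKM (log2 difference -1.10, limma, adjusted p = 0.0562). Of the keratinocyte markers KRT1, KRT5, DSG1, LOR and IVL were at 0, and the summed list was at 24.9 to 28.4 and 23.1 to 27.4 FPKM, nearly all of it KRT10. TP63 of that list was at 0.108 to 0.116 FPKM in shNT and at 0.282 to 0.409 FPKM in the other group (log2 difference 1.05, limma, adjusted p = 0.0575). The endothelial and fibroblast markers CDH5, COL1A2 and LUM were at 0, with a sum of 0.152 to 0.178 and 0.0956 to 0.144 FPKM for that list. Reads were few for a further set. S100G, the intestinal calcium carrier calbindin D9k, had 8, 3 and 2 reads in shNT and 0, 3 and 2 in the other group, a ratio of 0.365 with a 95% Clopper-Pearson interval of 0.102 to 1.09 (log2 difference -1.58 with an SE of 0.85, limma, adjusted p = 0.38). The log2 difference of S100G was -0.59 without shGPR81 replicate 1, the library with 0 reads, and -2.20 without shGPR81 replicate 2. S100A5 had 3 to 10 reads, S100Z 9 to 13, ANXA9 5 to 13 and S100A14 0 to 2 per library. For S100A5 and ANXA9 a change could not be detected at this depth unless it was large, with intervals of 0.486-fold to 2.15-fold and 0.465-fold to 1.61-fold. That of S100Z was narrower, 0.682-fold to 1.26-fold, and S100A14 was not tested. S100A2, at 6.44 to 9.03 FPKM and 5.91 to 7.63 FPKM, and ANXA10, at 6.05 to 7.19 FPKM and 5.70 to 7.43 FPKM, overlapped between groups.

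No annexin was called in either direction. Of the 10 tested, 3 were lower and 7 higher in sign, and the median log2 difference was 0.07 (0.008 over all tested genes). ANXA6 and ANXA5 were the 2 with an unadjusted p under 0.05, which 19.5% of all tested genes had. Groups without overlap were seen for 5 of the 10 annexins and 5 of the 13 S100 genes, where 25.6% of all tested genes had them, 12.7% lower and 12.9% higher. Over both families 3 genes were lower in this way and 7 higher. For the annexins these were ANXA6, ANXA1, ANXA4 and ANXA7, which were higher, and ANXA5, which was lower.

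ANXA6, which tethers late endosomes and cholesterol to the cytoskeleton, was at 146, 162 and 169.9 FPKM in shNT and at 183, 191 and 205 FPKM in the libraries labelled shGPR81. The log2 difference was 0.28 with an SE of 0.07 (limma, adjusted p = 0.0741), a fold of 1.21 with a 95% interval of 1.08 to 1.36. The adjusted p was 0.0134 after quantile normalization and 0.0298 with a block for replicate number. It was 0.061 to 0.218 when 1 library was left out. ANXA5, the phosphatidylserine binder used to stain dying cells, was at 567, 541 and 575 FPKM and at 496, 513 and 522 FPKM, with a log2 difference of -0.14 and an SE of 0.05 (limma, adjusted p = 0.194). The ratio of ANXA6 to ANXA5 was 0.258 to 0.300 in shNT and 0.370 to 0.392 in the other group. Both genes were without overlap, in opposite directions, so this ratio had to be apart and adds no support.

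**Figure D4:**
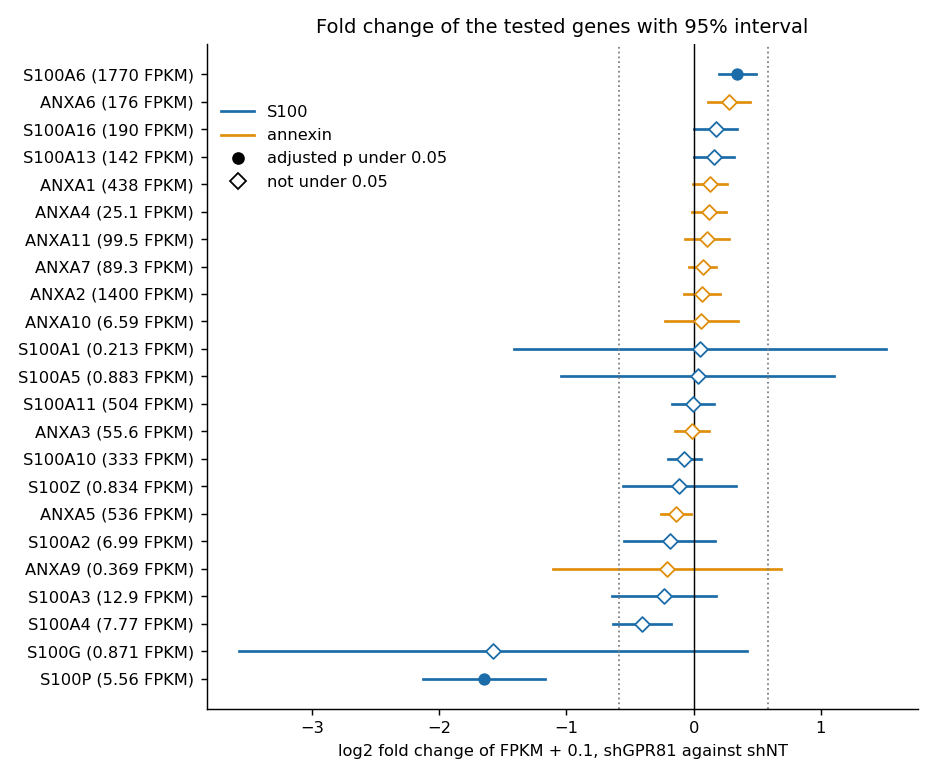
Log2 fold change of the 23 tested genes, shGPR81 against shNT, with limma's 95% interval (lines) and the mean FPKM in brackets; filled circles mark an adjusted p under 0.05 and dotted lines a 1.5-fold change. S100P at -1.65 is the one gene whose whole interval lies past a dotted line.

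Several of the most abundant members stayed within narrow intervals. ANXA2, which binds plasminogen activator with S100A10 at the cell surface, was at 1319, 1351 and 1448 FPKM in shNT and at 1401, 1432 and 1466 FPKM in the libraries labelled shGPR81. The groups overlapped, and the interval of the change was 0.948-fold to 1.152-fold (adjusted p = 0.649 from limma). S100A10 was at 336, 327 and 361 FPKM and at 326, 314.5 and 332 FPKM, with an interval of 0.871-fold to 1.04-fold (adjusted p = 0.551). S100A10 per ANXA2 was 0.254, 0.242 and 0.249 in shNT and 0.233, 0.220 and 0.227 in the other group, without overlap, although neither gene passed the test. ANXA1 was at 448, 399 and 410 FPKM and at 456, 470 and 449 FPKM (adjusted p = 0.274), and S100A11, its partner, at 462, 515 and 539 FPKM and at 483, 496 and 529 FPKM (adjusted p = 0.978), with an interval of 0.888-fold to 1.12-fold. S100A11 per ANXA1 overlapped between groups, at 1.03 to 1.31 and 1.06 to 1.18. ANXA3 had an interval of 0.905-fold to 1.09-fold, and those of ANXA4, ANXA7 and ANXA11 ended at 1.19-fold, 1.13-fold and 1.21-fold.

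ANXA8, an annexin of stratified and myoepithelial cells, was at the limit of detection. It had 2, 5 and 4 reads in shNT and 1, 0 and 2 in the other group, a ratio of 0.259 with a 95% Clopper-Pearson interval of 0.0464 to 0.980. It shares 80.6% of its stretches of 75 bases, the read length, with transcripts of other genes, most often its near-identical copy ANXA8L1, so reads of the copies cannot be told apart. ANXA8L1, named after its values were seen, was at 0.460, 0.262 and 0.536 FPKM in shNT and at 0.0358, 0.0398 and 0.0362 FPKM in the other group. It met the call rule (log2 difference -1.88 with an SE of 0.302, limma, adjusted p = 0.0139), but it passed the filter only through the shNT libraries. Every value of the other group was below the added 0.1 FPKM, so the size of the difference hangs on that constant. The log2 difference of ANXA8L1 was -0.45 with a pseudocount of 1 and -3.12 with 0.01. Summed, ANXA8 and ANXA8L1 were at 0.577 ± 0.121 FPKM in shNT and at 0.0782 ± 0.0393 FPKM (SD, n = 3), a log2 difference of -1.93 with an SE of 0.28 (limma, adjusted p = 0.0089), which passed both thresholds. The sum was chosen after the data were seen, rests on few reads and also passed the filter through the shNT libraries. Neither fit is taken as support for a fall. ANXA8L1 alone lost its call without replicate 1 or 2 of the shGPR81 group (adjusted p = 0.0565 and 0.056 from limma). For ANXA2, 3.11% of the stretches occur in the pseudogene ANXA2P2, which was itself at 0.740 ± 0.145 and 0.579 ± 0.253 FPKM.

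Among partners and relatives of both families, PLAT, the tissue plasminogen activator that ANXA2 and S100A10 bind, was the 1 called of the 27 tested genes on a list of 30 binding partners, where 2.54% of all tested genes were called. It was at 66.2, 74.0 and 76.7 FPKM in shNT and at 112, 113 and 121 FPKM in the other group, and the log2 difference was 0.67 with an SE of 0.07 (limma, adjusted p = 0.0021). The list had 19 genes higher and 8 lower in sign and a median log2 difference of 0.08, against 7449 higher, 6900 lower and 0.008 over all tested genes. Of the 18 genes for receptors of S100 proteins and annexins 10 were tested and 0 called by limma, 2 of them at an unadjusted p under 0.05, near the 19.5% of all tested genes. FPR1, a receptor of ANXA1, was at 1.37, 2.17 and 1.502 FPKM and at 1.14, 1.05 and 0.927 FPKM, without overlap (adjusted p = 0.126). FPR2 of the same list was listed at 0 in all 6 libraries, and FPR3 was at 0.0297 FPKM or below. BSG and TLR4, receptors of S100A9 and S100A8, had overlapping groups. NPTN of the same list was lower without overlap, as were 12.7% of all tested genes. It was at 51.2, 51.6 and 48.0 FPKM in shNT and at 45.4, 46.3 and 45.2 FPKM in the other group (adjusted p = 0.174 from limma).

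Of 17 tested membrane repair genes 1 was called, beside 2.54% of all tested genes. TGM2, a calcium-dependent crosslinking enzyme, was lower, at 68.8 ± 8.93 and 41.1 ± 2.68 FPKM (SD, n = 3), a log2 difference of -0.74 with an SE of 0.1 (limma, adjusted p = 0.0075). DYSF, the ferlin that acts with annexins at membrane lesions, was at 8.92, 10.5 and 10.9 FPKM and at 7.32, 7.78 and 8.603 FPKM without passing the test (adjusted p = 0.106 from limma). Among 31 tested genes of other EF-hand proteins, 3 were called, beside 2.54% of all tested genes. CALB2, which encodes calretinin, rose, with 49.6, 52.8 and 55.6 FPKM in shNT and 84.7, 84.8 and 90.0 FPKM in the other group (limma, adjusted p = 0.0011). VSNL1, a neuronal calcium sensor, rose from 2.41 ± 0.392 to 3.70 ± 0.249 FPKM (SD, n = 3, limma, adjusted p = 0.0465). It was called in 4 of 14 alternative settings, and of the fits without 1 library only in that without shNT replicate 3. MYL9, a myosin light chain, fell from 45.1 ± 6.62 to 26.8 ± 1.34 FPKM (SD, n = 3, limma, adjusted p = 0.0095) and lost its call without shNT replicate 2 (adjusted p = 0.0522). The median of that list was 0.02. Of the 57 genes that lie among or beside the S100 genes of chromosome 1 on the list, 38 were listed at 0, 12 were tested and 0 called by limma, 3 of them at an unadjusted p under 0.05, beside 2.54% and 19.5% of all tested genes.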

How the data were processed

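RNA-seq of MDA-MB-231 cells gave 6 libraries, 3 shNT and 3 shGPR81, grouped by their titles. The authors deposited FPKM, 1 value per gene symbol and library. Per the labels, reads were processed with TopHat2 2.0.13, Bowtie2 2.2.3, SAMtools 0.1.19 and Cuffnorm 2.2.1. The labels name mm10 and the paper hg19. The symbols are human. The annotation and strand setting are not given in the sources used here.

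Genes reaching 0.1 FPKM in 3 or more libraries were fitted with limma 3.58.1 (R 4.3.3, lmFit and eBayes with trend) on log2(FPKM + 0.1). The fit was tested on simulated data. Depth is not given. Reads were recovered as whole multiples of 1 step per gene, within a relative tolerance of 0.0001. Loci are those of GENCODE lifted to GRCh37. Promoters are from RefSeq. The members, lists and tests were chosen with earlier results of these data known. Named individually were members called, without overlap or among the 5 most abundant of a family, the known pairs, called genes of the other lists, and genes whose products bind a named member. Tested alternatives were a replicate block, left-out libraries, filters, pseudocounts, scalings, no trend, and treat.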

Additional observations from a re-analysis of the deposited data

How the results depend on the processing

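S100P was called in 14 of 14 alternative settings for which its fold change was refitted, with a log2 fold change between -1.83 and -1.37. S100A6 had an adjusted p under 0.05 in 9 of 14, and it was 0.0612 without the filter. Under limma's treat, which demands a fold change shown to exceed 1.5, the number of S100 genes called lower was 0, and those of all genes were 46 lower and 9 higher, against 228 and 137. With a pseudocount of 1 they were 142 and 75. Leaving out 1 library at a time gave 110 to 238 lower and 68 to 156 higher genes. The lower count moved over 1.5 times without shNT replicate 2 or 3 or shGPR81 replicate 1 or 2, and the higher count without shNT replicate 2 or any shGPR81 library, while S100 and annexin counts did not change. The sign of S100A11, near 0, turned without single libraries, over a range of -0.069 to 0.042. HCAR1 lay between -0.78 and -0.22 without single libraries. ANXA8L1 was not called with a pseudocount of 1 (log2 fold change -0.45) or without shGPR81 replicate 1 or replicate 2, and could not be fitted without any 1 of the shNT libraries or at the 1 FPKM filter, where it no longer passed the filter. With the replicate number as a block, 197 genes were called lower and 115 higher, and S100P was called. No clear pairing by number was seen across genes. Same-numbered libraries correlated at 0.12, 0.0223 and 0.00577 in their deviations across genes, and differently numbered ones at -0.103 to 0.0834. The block cut the SE of S100P from 0.206 to 0.080, while that of S100A4 was 0.098 without it and 0.1045 with it. Whether the libraries were paired is thus not settled. For treat, single-gene fold changes are those of the reported fit. Few reads limit S100P, S100G and ANXA8, and FPKM give no depth for the abundant genes.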
